A study of Homo sapiens with 4 samples.

Results

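The genes described here are 9 enzymes that make serine, one-carbon folate units, proline, asparagine and arginine, together with the secreted glycoprotein gene STC2, which is not an enzyme. They were listed by name (PHGDH, PSAT1, PSPH, SHMT2, MTHFD2, ALDH1L2, PYCR1, ASNS, ASS1 and STC2) and matched by symbol, which found 10 of the 67062 rows of the count table. All 10 passed the filter on low counts, as did 15918 genes in all. The list was drawn up with earlier results in view, and its genes count as chosen by their log2 fold changes between PIG-LONA and PIG-EMPTY in these same libraries, so the values of the 10 genes in that comparison are given as a description, without a test.

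RNA was sequenced from OCI-AML3, an established human acute myeloid leukaemia line with the cytoplasmic NPM1 mutation. The PIG-LONA cultures carried the pMSCV-PIG retrovirus with the long noncoding RNA LONA behind an RNA polymerase II promoter, and the PIG-EMPTY cultures carried the same virus without an insert. Both vectors also express a puromycin marker and GFP from a PGK promoter, and cells positive for GFP were sorted in both groups. Each vector was put into the cells in 2 separate transductions, which gave 2 libraries per group, so every comparison is between 2 and 2 cultures of 1 cell line. Library totals ran from 29819572 to 38358442 reads counted on genes. Of 12 myeloid leukaemia markers, 11 passed the filter, among them AZU1 at 579 to 676 CPM (reads per library scaled to a common total, here by the TMM method). KIT had between 0 and 2 reads per library. Markers of T, B, erythroid, epithelial and fibroblast cells summed to 1.44 to 1.51 CPM in PIG-EMPTY, against 1.60 to 1.87 CPM in PIG-LONA over 15 genes, with CD3E, CD3D, MS4A1, HBB, HBA1 and EPCAM among those at 0 in all 4 libraries. No row carried LONA as its symbol or an older symbol, and its level was not analysed here.

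Serine is made from a glycolytic intermediate by PHGDH, PSAT1 and PSPH in turn. SHMT2 then moves a carbon from serine to folate inside mitochondria, and MTHFD2 oxidises the folate-bound carbon. MTHFD1L releases it as formate, which leaves for the cytosol, where it feeds purine and thymidylate synthesis. ALDH1L2 instead oxidises it to carbon dioxide. Many of these genes, with ASNS, PYCR1 and STC2, are known targets of ATF4, the transcription factor of the integrated stress response, which is switched on when amino acids run short. Leukaemia cells that lack ASNS or ASS1 depend on asparagine or arginine from their surroundings, which is the basis of treatment with asparaginase and arginine-degrading enzymes.

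Promoters are shown first because ATF4 acts through a short element in them. RefSeq promoter sequences (GRCh38.p14) were found for 6 of the 10 genes, PHGDH, PSAT1, MTHFD2, ASNS, ASS1 and STC2. Each sequence covers the 250 bases before a transcription start, read 5′ to 3′ on the gene's strand. Capitals mark 3 motifs, the core of the C/EBP-ATF response element that ATF4 binds (TGATGNAA), the E-box of MYC and related factors (CACGTG) and the CCAAT box (CCAAT), each searched on both strands, and no 2 matches overlap. The first 4 belong to genes that lay higher in PIG-LONA, and the next to MTHFD2, which did not. The last belongs to ASNS, whose row cannot be read as that gene's level, as described below.
PHGDH, chr1:119711684-119711933, plus strand: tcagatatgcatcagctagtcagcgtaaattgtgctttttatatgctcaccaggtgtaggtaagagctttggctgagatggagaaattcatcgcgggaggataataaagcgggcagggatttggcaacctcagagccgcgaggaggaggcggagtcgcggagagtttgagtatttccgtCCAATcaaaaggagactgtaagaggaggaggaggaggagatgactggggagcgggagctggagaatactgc
PSAT1, chr9:78296875-78297124, plus strand: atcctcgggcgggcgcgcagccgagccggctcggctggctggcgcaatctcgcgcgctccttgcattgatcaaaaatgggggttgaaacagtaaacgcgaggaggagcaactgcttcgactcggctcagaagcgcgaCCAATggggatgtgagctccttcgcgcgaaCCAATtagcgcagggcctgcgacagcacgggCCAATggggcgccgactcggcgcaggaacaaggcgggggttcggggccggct
ASS1, chr9:130444711-130444960, plus strand: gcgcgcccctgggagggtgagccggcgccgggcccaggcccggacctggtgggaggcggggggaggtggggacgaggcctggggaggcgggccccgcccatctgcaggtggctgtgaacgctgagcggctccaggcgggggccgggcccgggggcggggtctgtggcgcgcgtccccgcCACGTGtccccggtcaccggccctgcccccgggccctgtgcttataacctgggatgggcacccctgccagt
STC2, chr5:173328415-173328664, minus strand: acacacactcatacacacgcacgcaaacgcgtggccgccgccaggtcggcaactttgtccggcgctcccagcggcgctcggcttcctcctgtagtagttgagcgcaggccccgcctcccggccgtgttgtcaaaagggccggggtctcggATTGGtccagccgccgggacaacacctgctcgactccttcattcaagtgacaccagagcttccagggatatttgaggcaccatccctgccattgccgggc
MTHFD2, chr2:74198365-74198614, plus strand: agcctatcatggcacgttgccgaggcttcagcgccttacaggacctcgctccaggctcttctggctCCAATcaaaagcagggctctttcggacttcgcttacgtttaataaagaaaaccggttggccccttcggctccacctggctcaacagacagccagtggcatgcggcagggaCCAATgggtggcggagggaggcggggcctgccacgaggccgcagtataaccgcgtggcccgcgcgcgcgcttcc
ASNS, chr7:97872409-97872658, minus strand: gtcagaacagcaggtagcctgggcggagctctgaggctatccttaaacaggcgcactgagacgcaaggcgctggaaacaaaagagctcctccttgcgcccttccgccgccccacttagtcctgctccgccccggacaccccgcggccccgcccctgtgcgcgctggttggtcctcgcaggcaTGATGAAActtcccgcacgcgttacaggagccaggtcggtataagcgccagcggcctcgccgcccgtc

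The ATF4 core stood in the ASNS window alone, as TGATGAAA beginning 68 bases before the start, and 3.14% of all 35116 RefSeq promoter windows of this length held a match. The E-box stood 71 bases before the listed start of ASS1, against 6.34% of all windows with a match. The CCAAT box was in the windows of PHGDH, PSAT1 (3 matches), STC2 (as ATTGG, its reverse complement) and MTHFD2 (2 matches), and 32.0% of all windows held one. ASNS and ASS1 each have a further listed start, and neither of those windows held any of the 3 motifs. CCAAT boxes were found in genes that lay higher and in MTHFD2, which did not, and their part in the levels was not tested. A match is a match of letters only, and elements further out or inside the gene are outside these windows.

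In PIG-LONA, 6 of the 10 genes lay higher and 4 overlapped with PIG-EMPTY. PHGDH and PSAT1 of the serine pathway, ALDH1L2, PYCR1, ASS1 and STC2 were higher by 14.1% to 67.3%, while PSPH, SHMT2, MTHFD2 and ASNS had log2 fold changes between -0.15 and 0.00. These 6 genes had adjusted p under 0.05 in edgeR's quasi-likelihood fit over all tested genes, in which 6.44% of all genes were called, 2.93% as higher and 3.51% as lower, and 0 of the 10 were called lower. In the same 6 genes both PIG-LONA libraries lay above both PIG-EMPTY libraries, which held for 23.7% of all genes, and in 0 of the 10 did both lie below, which held for 24.4%. No reading is taken from these counts, since the genes were chosen with this contrast known.

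**Figure D1:**
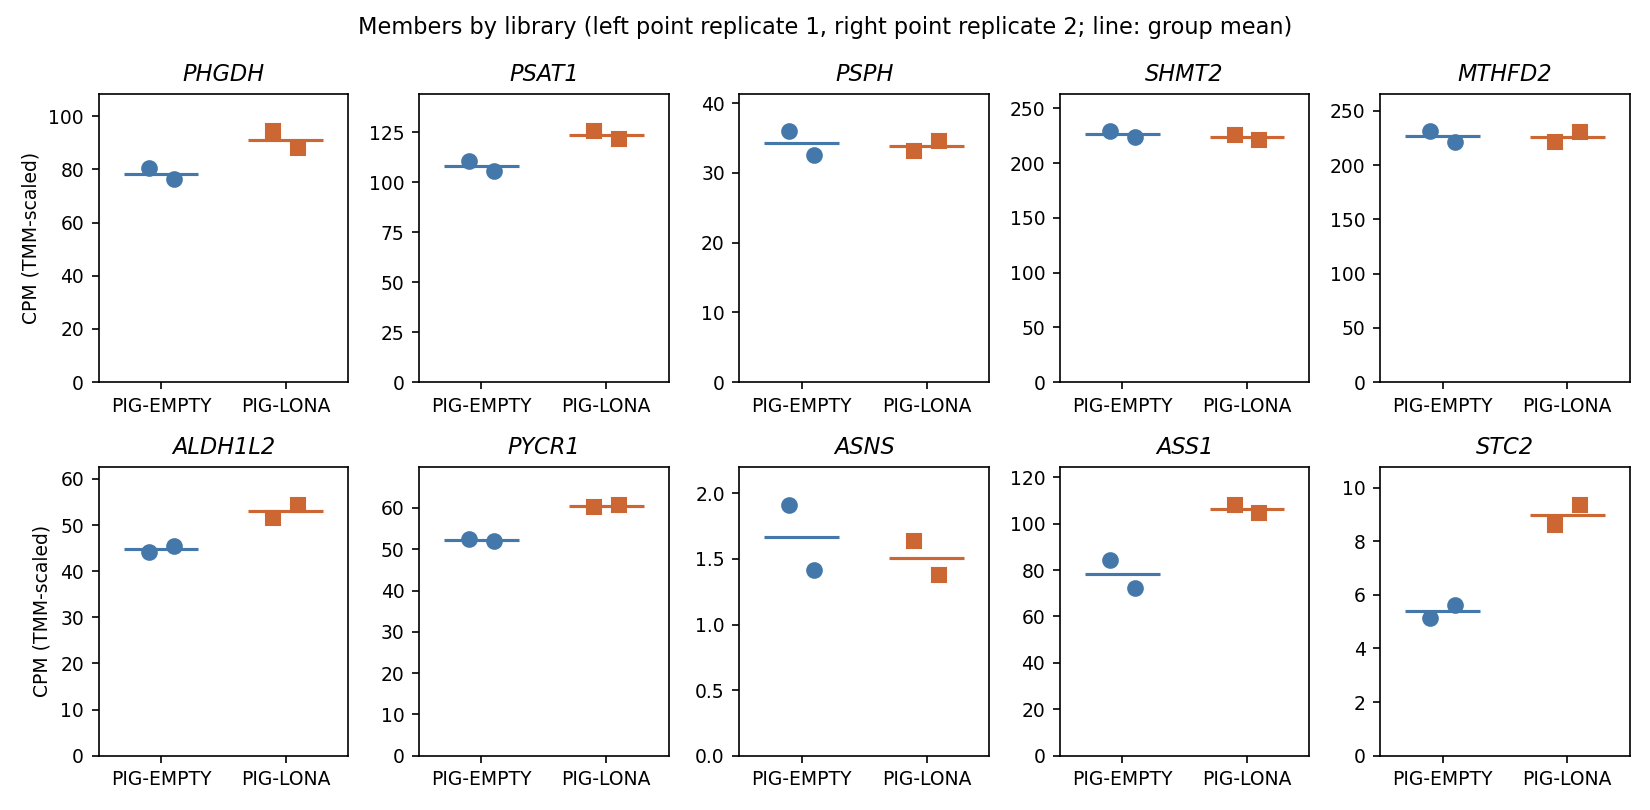
Level of each of the 10 genes in every library, in TMM-scaled CPM on axes that start at 0, with PIG-EMPTY as blue circles, PIG-LONA as orange squares and a line at each group mean. The groups are apart for PHGDH, PSAT1, ALDH1L2, PYCR1, ASS1 and STC2 and overlap for PSPH, SHMT2, MTHFD2 and ASNS.

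PHGDH, the dehydrogenase that commits carbon to serine (ENSG00000092621.12, chromosome 1, 119648411 to 119744226, GRCh38), was at 80.3 and 76.4 CPM in PIG-EMPTY and reached 94.4 and 88.1 CPM in PIG-LONA, replicate 1 before replicate 2 here and throughout. The groups did not overlap, although the gap between 80.3 and 88.1 CPM was little wider than the distance between the PIG-LONA libraries. Its log2 fold change was 0.22 ± 0.05 (SE). PSAT1, the aminotransferase of the next step (ENSG00000135069.14, chromosome 9, 78297143 to 78330093), was at 111 and 106 CPM against 125 and 121 CPM, a log2 fold change of 0.19 ± 0.04. Again the groups were apart, with the replicate 1 library the higher one in each group.

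PSPH, the phosphatase that completes serine (ENSG00000146733.14, chromosome 7, 56011051 to 56051604), showed no such difference. It was at 36.0 and 32.5 CPM in PIG-EMPTY, against 33.1 and 34.5 CPM in PIG-LONA, so that the PIG-LONA values fell between the PIG-EMPTY values (log2 fold change -0.02 ± 0.06). Taken per kilobase of coding-transcript exon, the level of PSAT1 over that of PSPH was 3.06 and 3.24 in PIG-EMPTY, against 3.78 and 3.51 in PIG-LONA. PHGDH over PSPH was 1.83 and 1.92 against 2.34 and 2.09. PHGDH over PSAT1 lay between 0.594 and 0.618 in the 4 libraries, a narrow range. The first pair of enzymes kept nearly the same ratio to each other, while the third stood lower beside them in PIG-LONA than in PIG-EMPTY. For PHGDH over PSPH the gap between the groups was smaller than the distance between the PIG-LONA libraries. Whether PSPH differed from PHGDH or PSAT1 in response was not tested. With lengths taken over every annotated exon, PHGDH stood below PSPH instead, at means of 9.20 and 12.3 CPM per kilobase.

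The mitochondrial folate enzymes were split. SHMT2, the serine hydroxymethyltransferase of mitochondria (ENSG00000182199.11, chromosome 12, 57229327 to 57234935), was at 229 and 224 CPM in PIG-EMPTY, against 225 and 221 CPM in PIG-LONA (log2 fold change -0.02 ± 0.04). MTHFD2, the dehydrogenase and cyclohydrolase that follows it (ENSG00000065911.12, chromosome 2, 74198562 to 74217565), was at 231 and 221 CPM against 221 and 230 CPM, with a log2 fold change of 0.00 ± 0.04. The groups overlapped for both of these abundant genes, counted with 6613 to 8854 reads per library.

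ALDH1L2, which oxidises mitochondrial formyl-folate to carbon dioxide with gain of NADPH (ENSG00000136010.14, chromosome 12, 105019784 to 105084577), was higher in PIG-LONA. It was at 44.2 and 45.4 CPM in PIG-EMPTY, against 51.5 and 54.4 CPM in PIG-LONA (log2 fold change 0.24 ± 0.05). The groups were apart by more than the distance within either. Per kilobase, ALDH1L2 over MTHFD2 was 0.113 and 0.121 in PIG-EMPTY, against 0.138 and 0.140 in PIG-LONA, so ALDH1L2 stayed far below MTHFD2 in every library.

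PYCR1, the mitochondrial reductase of the last step of proline synthesis (ENSG00000183010.17, chromosome 17, 81932384 to 81942412), showed the closest replicates among the 6 higher genes. It was at 52.4 and 52.0 CPM in PIG-EMPTY, against 60.3 and 60.8 CPM in PIG-LONA, a log2 fold change of 0.21 ± 0.05. Of its exon bases in GENCODE 29, 14.1% are shared with MYADML2 on the same strand, a gene with 0 reads in all 4 libraries.

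ASS1, the argininosuccinate synthase that turns citrulline and aspartate toward arginine (ENSG00000130707.18, chromosome 9, 130444929 to 130501274), had the widest difference among the enzymes. It was at 84.5 and 72.1 CPM in PIG-EMPTY, against 108 and 105 CPM in PIG-LONA, a log2 fold change of 0.44 ± 0.06 and a fold of 1.36. The groups were apart, with the PIG-EMPTY libraries further from each other than the PIG-LONA libraries. The log2 fold change was 0.56 without PIG-EMPTY replicate 1 and 0.33 without PIG-EMPTY replicate 2.

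STC2, which encodes stanniocalcin 2, a secreted glycoprotein that inhibits the protease of insulin-like growth factor binding proteins (ENSG00000113739.10, chromosome 5, 173314713 to 173329503), had 153 and 183 reads in PIG-EMPTY, against 258 and 360 reads in PIG-LONA. That was 5.14 and 5.63 CPM against 8.62 and 9.36 CPM, a log2 fold change of 0.74 ± 0.11 and a fold of 1.67. The groups were clearly apart, at a level well below that of the enzymes other than ASNS. Its paralog STC1 had 14.7 and 14.5 CPM in PIG-EMPTY, against 13.7 and 11.4 CPM in PIG-LONA and was not called (edgeR log2 fold change -0.23 ± 0.09, adjusted p = 0.161), though it was without PIG-LONA replicate 1 (-0.36), and its value was -0.09 without PIG-LONA replicate 2. Per kilobase, STC2 over STC1 was 0.271 and 0.301 in PIG-EMPTY, against 0.487 and 0.636 in PIG-LONA.

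**Figure D2:**
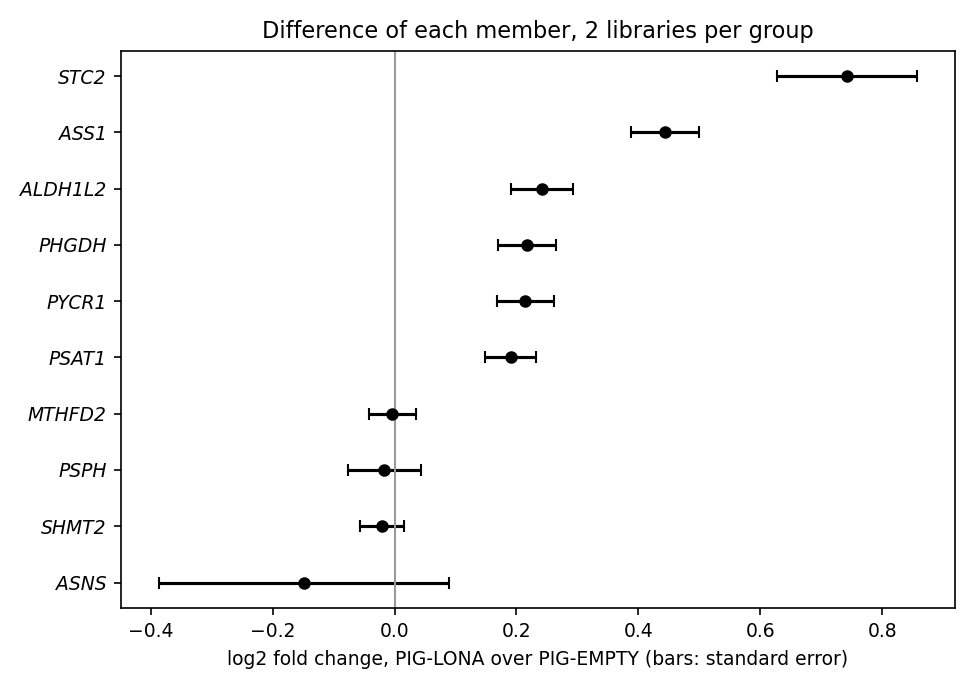
Log2 fold change of PIG-LONA over PIG-EMPTY for each of the 10 genes with its standard error, from 2 libraries per group. STC2 (0.74) and ASS1 (0.44) stand apart, 4 enzymes lie between 0.19 and 0.24, and PSPH, SHMT2 and MTHFD2 lie at 0 with ASNS below it but with the widest error.

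ASNS, the asparagine synthetase and the best known ATF4 target of the list (ENSG00000070669.17, chromosome 7, 97852118 to 97872542), was counted with 57 and 46 reads in PIG-EMPTY, against 49 and 53 reads in PIG-LONA. These are 1.91 and 1.42 CPM against 1.64 and 1.38 CPM, and the groups overlapped (log2 fold change -0.15 ± 0.24). With this few reads the value swung from -0.36 without PIG-EMPTY replicate 2 to 0.08 without PIG-EMPTY replicate 1. In GENCODE 29, 79.7% of the bases of its coding transcripts are also exon of AC079781.5, a longer noncoding gene on the same strand (chromosome 7, 97851688 to 97972985), which had 46 and 89 reads in PIG-EMPTY, against 78 and 76 in PIG-LONA. The other 9 genes share 0% of their coding-transcript bases with a gene on the same strand. How the counting treated reads that fall on both ASNS and AC079781.5 is not given in the sources used here. The part of the overlap in the low count was not tested, so the ASNS row cannot be read as the level of the gene. On the opposite strand, MTHFD2 shares 33.2% of its exon bases with other genes, PYCR1 15.6%, SHMT2 9.51% and ALDH1L2 1.7%. The strand setting of the counting is not given either, and the part of these overlaps was not tested.

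Several of these genes have pseudogene copies elsewhere in the genome, to which reads could be lost. The copies were found by symbol alone, and how alike they are to the genes was not examined. The table held 30 such rows, 14 of them copies of ASS1, 7 of MTHFD2, 4 of PSAT1, 4 of ASNS and 1 of PSPH. Of these, 21 had 0 reads in all libraries, and all 30 together had 51 reads, with at most 14 in any library for any one copy. Reads that fit a gene and its copy equally well would be in neither row if the counting dropped them.

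Levels of different genes were compared per kilobase of the exons of their coding transcripts. SHMT2 led the 10 genes at 74.3 CPM per kilobase as a mean over 4 libraries (range 73.1 to 75.6), above 93.7% of tested coding genes. PSAT1 (48.3 to 57.3), MTHFD2 (49.6 to 51.9) and ASS1 (34.9 to 52.3) followed with overlapping ranges. Within each library PSAT1 lay above ASS1. MTHFD2 cannot be put in order with either. It lay above PSAT1 in PIG-EMPTY and below it in PIG-LONA, and was below ASS1 only in PIG-LONA replicate 1. PHGDH came next (28.7 to 35.4), then PYCR1 (22.6 to 26.4) and PSPH (14.9 to 16.5), each apart from its neighbours in range. The exception was the lowest ASS1 library, below the highest PHGDH library, though ASS1 lay above PHGDH within each library. ALDH1L2 was at 5.86 to 7.21 CPM per kilobase, STC2 at 0.960 to 1.75 and the ASNS row, which may not give that gene's level, at 0.553 to 0.768. ATF4 itself was at 129 to 133 CPM per kilobase, above all 10. With lengths taken over every annotated exon instead, PSAT1 led the 10 genes at 52.9 CPM per kilobase, above SHMT2 (46.5) and MTHFD2 (46.4). PHGDH (9.20) moved from place 6 to place 11 among the 18 genes plotted, below PYCR1 (19.5) and PSPH (12.3). Its annotated exons span 9217 bases against 2662 bases for its coding transcripts.

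**Figure D3:**
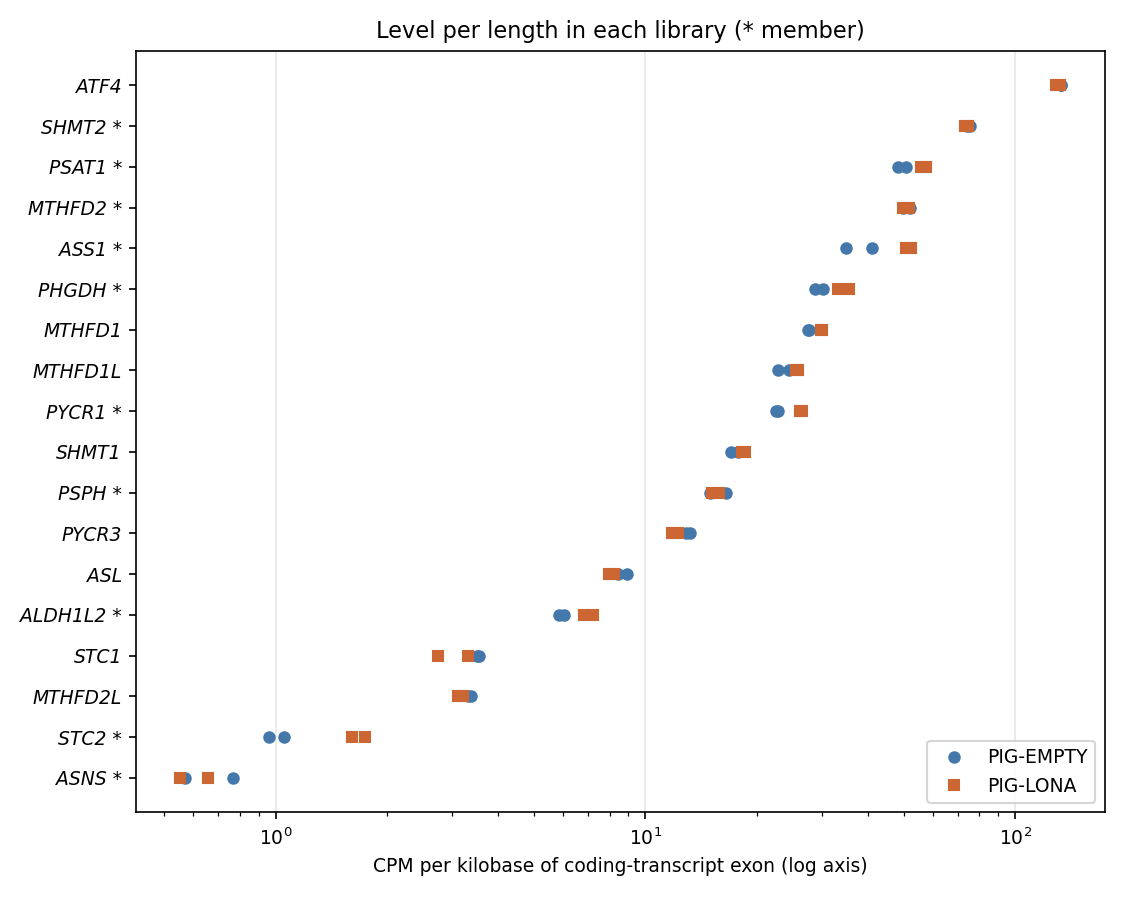
Level of the 10 genes (starred), with paralogs and partners and ATF4 in each library, in CPM per kilobase of coding-transcript exon on a log axis, with PIG-EMPTY as blue circles and PIG-LONA as orange squares. Mitochondrial SHMT2 and MTHFD2 lie above SHMT1 and MTHFD2L. The ASNS row, plotted lowest, cannot be read as that gene's level.

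SHMT2 and MTHFD2 were the more abundant forms beside their paralogs. SHMT2 was 3.93 to 4.45 times the level per kilobase of SHMT1, its cytosolic counterpart, and MTHFD2 was 14.96 to 16.55 times that of MTHFD2L. PYCR1 was at 1.72 to 2.22 times the level of PYCR3, the cytosolic form. ASS1 stood at 3.90 to 6.57 times ASL, which splits argininosuccinate into arginine and fumarate. None of these partners was called between the groups. In that edgeR fit the log2 fold changes were 0.08 ± 0.05 for SHMT1 (adjusted p = 0.403), -0.08 ± 0.09 for MTHFD2L (adjusted p = 0.717), -0.12 ± 0.06 for PYCR3 (adjusted p = 0.269) and -0.10 ± 0.07 for ASL (adjusted p = 0.513). Whether a member differed from its paralog in response was not tested.

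The rest of the pathway was described by 9 lists of other genes, 164 in all, of which 141 were tested. Of these, 5 rose, 4 fell and 132 were not called in edgeR, a share near the 6.44% called over all genes. The median log2 fold change of the 141 was 0.01, beside 0.00 over all tested genes. The 5 that rose were GPT2, TYMS, AMD1, VARS1 and SERINC1, and the 4 that fell were SLC7A11, SDSL, CEBPB and SERINC2. With PIG-LONA replicate 1 left out 19 rose and 11 fell, and with PIG-LONA replicate 2 left out 10 rose. With PIG-EMPTY replicate 1 left out 3 rose, and leaving out PIG-EMPTY replicate 2 left 1.

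**Figure D4:**
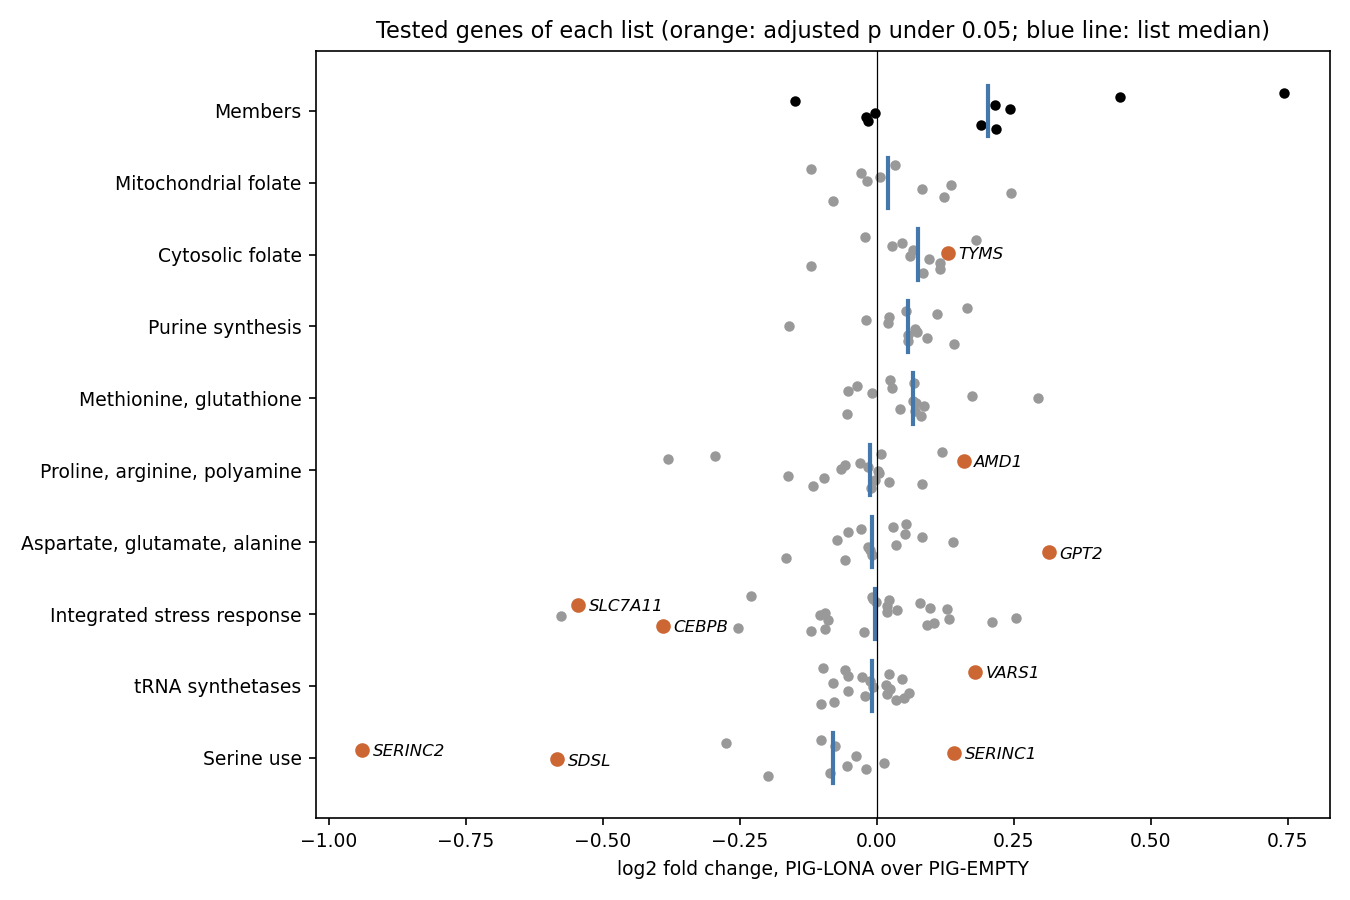
Log2 fold change of every tested gene by list, 1 point per gene, with the list median as a blue line and genes with adjusted p under 0.05 in orange and named. Points of the 10 members are black and carry no call. Most list medians lie near 0, and the called genes are scattered over 6 lists.

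Of 10 tested mitochondrial folate and glycine cleavage genes, 0 were called by edgeR, DESeq2 or limma-voom, and 1 had an unadjusted edgeR p under 0.05 (18.7% of all genes did). Over all genes with an adjusted p, DESeq2 called 1.79% higher and limma-voom 2.85%. DLD, the dehydrogenase shared by glycine cleavage and the pyruvate complex, was at 207 and 205 CPM against 201 and 206 CPM, and SFXN1, the mitochondrial serine carrier, at 171 and 164 against 167 and 169 CPM. MTHFD1L, which releases formate in mitochondria, was at 93.6 and 87.1 CPM against 97.7 and 98.8 CPM (edgeR log2 fold change 0.12 ± 0.04, adjusted p = 0.124). It was called without PIG-LONA replicate 1 (0.13), and its value was 0.175 without PIG-EMPTY replicate 1 and 0.070 without PIG-EMPTY replicate 2. MTHFD1L lies on chromosome 6, whose 799 tested genes had a median log2 fold change of 0.17.

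Of 12 cytosolic folate genes, TYMS rose, 0 fell and 11 were not called, with a median log2 fold change of 0.075. TYMS, the thymidylate synthase that spends a folate-bound carbon on DNA precursors, went from 237 and 232 CPM to 263 and 250 CPM (edgeR log2 fold change 0.13 ± 0.04, adjusted p = 0.0442). Of its exon bases, 46.6% are shared with genes on the opposite strand, 39.1% of them with ENOSF1 alone. The groups were apart but the call was narrow, and it was lost when either PIG-EMPTY library was left out, and also under DESeq2, library totals or no low-count filter. MTHFD1, the cytosolic enzyme that takes up formate, was at 191 and 192 CPM against 207 and 206 CPM and missed the threshold (edgeR log2 fold change 0.11 ± 0.04, adjusted p = 0.0711), which it passed when either PIG-LONA library was left out.

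Purine synthesis, a main consumer of one-carbon units, had 0 calls among 13 tested genes by edgeR, DESeq2 or limma-voom, and 2 with an unadjusted edgeR p under 0.05. Of the 13, 11 had a log2 fold change above 0 and the median was 0.06. Of the 12 cytosolic folate genes 10 lay above 0, and of the 12 genes that use or carry serine 10 lay below. Over all 141 tested list genes, 75 lay above 0 and 66 below. IMPDH2, the first enzyme toward guanine nucleotides, was at 461 and 461 CPM against 475 and 461 CPM, and PAICS, a middle enzyme of the pathway, at 352 and 350 against 368 and 369 CPM. Methionine, transsulfuration and glutathione genes likewise had 0 calls among 15 by those same tools and 2 with an unadjusted edgeR p under 0.05. MAT2A, which makes S-adenosylmethionine, was at 643 and 624 CPM against 666 and 674 CPM (edgeR adjusted p = 0.183) and was likewise called when either PIG-LONA library was left out. AHCY, which clears S-adenosylhomocysteine, was at 209 and 215 CPM against 223 and 221 CPM.

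Among 15 genes of aspartate, glutamate and alanine metabolism GPT2 rose and 0 fell. GPT2, the mitochondrial alanine aminotransferase and a known ATF4 target, went from 55.2 and 56.3 CPM to 68.5 and 70.0 CPM (edgeR log2 fold change 0.31 ± 0.05, adjusted p = 0.000203). The groups were far apart beside the distance between replicates, and the call held under all 12 alternatives. In proline, arginine and polyamine metabolism 1 of 18 rose and 0 fell. That gene was AMD1, the decarboxylase of polyamine synthesis, at 182 and 181 CPM against 200.1 and 205 CPM (edgeR log2 fold change 0.16 ± 0.04, adjusted p = 0.0110), and it lies on chromosome 6, close to that chromosome's median. AMD1 was not called when either PIG-EMPTY library was left out, or without the low-count filter.

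Of 26 tested genes of the integrated stress response beside the 10, 0 rose in edgeR and 2 fell, with a median log2 fold change of -0.005. DESeq2 and limma-voom likewise called 0 higher. An unadjusted edgeR p under 0.05 was found for 10 of the 26, against 18.7% of all genes. Of these 10, 5 were on the higher side and 5 on the lower. ATF4 mRNA was at 334 and 334 CPM in PIG-EMPTY, against 325 and 332 CPM in PIG-LONA (edgeR log2 fold change -0.02 ± 0.03, adjusted p = 0.800). ATF4 is controlled largely at translation, which these data do not measure. SLC7A11, the cystine importer and another known ATF4 target, fell from 32.8 and 31.4 CPM to 21.7 and 22.2 CPM (edgeR log2 fold change -0.55 ± 0.06, adjusted p = 1.12e-05), under all 12 alternatives. CEBPB, a transcription factor of myeloid cells and of the stress response, fell from 60.0 and 54.9 CPM to 49.6 and 38.6 CPM (edgeR log2 fold change -0.39 ± 0.08, adjusted p = 0.00294), with a wide gap between the PIG-LONA libraries, and was not called by DESeq2 or without the low-count filter. Its value was -0.57 without PIG-LONA replicate 1 and -0.21 without PIG-LONA replicate 2.

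Of the 20 cytosolic tRNA synthetases, many of which ATF4 also controls, 1 rose, 0 fell and 19 were not called. VARS1, the valine enzyme, went from 313 and 299 CPM to 353 and 340 CPM (edgeR log2 fold change 0.18 ± 0.04, adjusted p = 0.00449), and like AMD1 it lies on chromosome 6. It was not called without PIG-EMPTY replicate 2. The median of the list was -0.01.

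Among 12 tested genes that use or carry serine, 1 rose and 2 fell, and the median was -0.08. SDSL, a serine and threonine dehydratase-like enzyme, fell from 8.73 and 9.17 CPM to 5.85 and 6.09 CPM (edgeR log2 fold change -0.58 ± 0.11, adjusted p = 0.00188) and was called under all 12 alternatives. SERINC2 had 51 and 40 reads in PIG-EMPTY, against 22 and 30 in PIG-LONA, and its call stood at the threshold (edgeR log2 fold change -0.94 ± 0.28, adjusted p = 0.04999) and held in 3 of the 11 alternatives that gave an adjusted p. SERINC1, on chromosome 6, went from 127 and 128 CPM to 138 and 142 CPM (edgeR log2 fold change 0.14 ± 0.04, adjusted p = 0.0349), and was not called under the same 5 alternatives as TYMS.

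Of 11 myeloid markers tested in edgeR, PRTN3, AZU1 and FLT3 rose, ANPEP and SPI1 fell and 6 were not called, against 2.93% of all genes higher and 3.51% lower. ANPEP, the surface aminopeptidase CD13, went from 42.1 and 40.1 CPM to 27.7 and 27.7 CPM (edgeR log2 fold change -0.57 ± 0.06), and FLT3, a receptor kinase of myeloid progenitors, from 37.0 and 37.5 to 49.4 and 51.5 CPM (0.44 ± 0.05). What part the marker differences have in the values of the 10 genes was not tested. In such bulk samples a change in the share of cells that express a gene and a change in the RNA per cell cannot be told apart.

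The values of the 6 higher genes kept their direction when any 1 library was left out. This follows from groups that do not overlap, and nothing is read from it. The range over all 12 alternatives was 0.17 to 0.27 for PHGDH, 0.159 to 0.225 for PSAT1, 0.20 to 0.28 for ALDH1L2, 0.21 to 0.22 for PYCR1, 0.33 to 0.56 for ASS1 and 0.68 to 0.81 for STC2. PSPH (-0.09 to 0.06), MTHFD2 (-0.03 to 0.03) and ASNS (-0.36 to 0.08) crossed 0, and SHMT2 stayed between -0.035 and -0.003. The number of the 10 genes past the threshold, from which nothing is read, was 4 with PIG-EMPTY replicate 1 left out and 3 with PIG-EMPTY replicate 2 left out. Without the low-count filter it was 2, ASS1 and STC2.

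**Figure D5:**
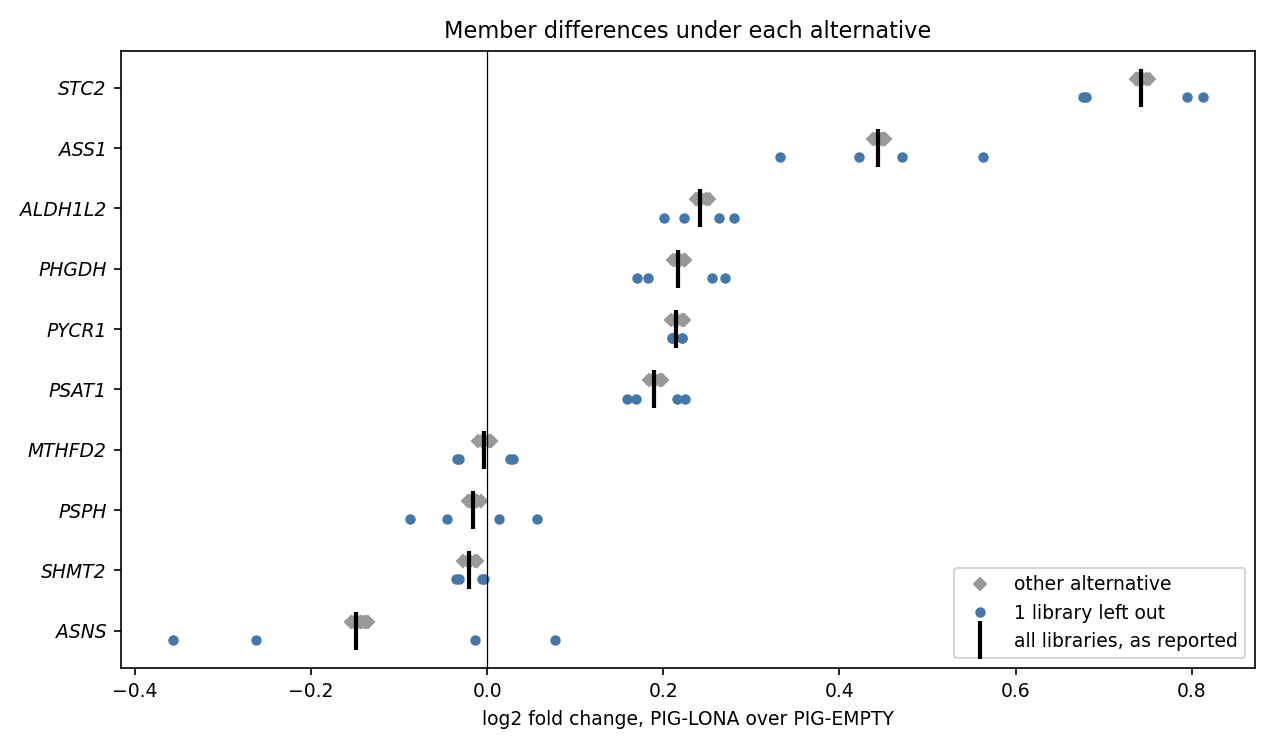
Log2 fold change of each of the 10 genes with all libraries (black bar), with each library left out (blue circles) and under the 8 other alternatives (grey diamonds). Scaling, filter and tool hardly moved the values, and leaving out a library moved ASNS and ASS1 the most.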

How the data were processed

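Poly(A) RNA of 4 OCI-AML3 cultures, 2 per vector, was sequenced from directional libraries, per the labels' protocols. The table deposited by the authors holds raw read counts per Ensembl gene, 1 column per library. FastQC 0.11.4, STAR 2.5, HTSeq and hg38 are named in the submitters' processing notes, while the choice of annotation release, strand setting and treatment of reads on overlapping genes is information not given in the sources used here. Symbols came from a reference table (60402 of 67062 rows matched, and the unmatched rows took 0.0723% of all reads). Coordinates, exon lengths and overlaps came from GENCODE 29 on GRCh38, the assembly of hg38.

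Genes were filtered with filterByExpr (minimum count 10, minimum total 15), scaled by TMM and tested with edgeR 4.0.16 in R 4.3.3 (glmQLFit, glmQLFTest, group as the single term, two-sided, Benjamini-Hochberg over 15918 genes, threshold 0.05), after a check of the script on simulated data. The SE is the log2 fold change divided by the square root of F. Alternatives used DESeq2 1.42.0, limma-voom (limma 3.58.1), other scalings and filters, a replicate block, 1 library left out in turn (the lone library of that group is then assumed to vary like the other group) and no chromosome 6 genes. Counting precision is high at this depth except for rows with few reads such as ASNS, and the biological coefficient of variation was 2.95%. The chi-square per gene between replicates was 1.81 in PIG-EMPTY and 4.67 in PIG-LONA, above the 1 that counting noise gives, so each library was kept as a sample.

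The 10 genes and the pathway lists were chosen with earlier results of these data known. Named beside the 10 were, per list, up to 4 called genes with the smallest p or, with none called, the 2 of highest CPM, and a fixed set of partners or paralogs, of which 1 is not reported here. Marker genes were named after their values were seen.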

Additional observations from a re-analysis of the deposited data

How the results depend on the processing

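All genes past the threshold numbered 1025. This count was 334 without the low-count filter, 473 under DESeq2, 660 without chromosome 6 genes and from 466 to 2331 with 1 library left out. Among the pathway lists, 5 genes rose, against 3 with library totals, 3 with DESeq2, 2 when unfiltered, 2 without chromosome 6 genes and 1 to 19 with 1 library left out. The 4 falling genes became 2 under DESeq2 and 2 if unfiltered, and 3 to 11 with 1 library left out. The 6 members past the threshold became 2 without the low-count filter and 3 to 6 with 1 library left out. The cause was not tested, beyond the fact that the unfiltered fit tested more genes. The fit without chromosome 6 genes by design left out AMD1, VARS1 and SERINC1, 3 of the 5 rising pathway genes. The 9 called pathway genes changed sign under none of the 12 alternatives that gave them a value. Their groups do not overlap, so a change of sign with 1 library left out was hardly possible. The myeloid markers were not run under these alternatives. Same-numbered libraries deviated together only weakly (correlation 0.097 over 9352 genes), and nothing in the labels pairs them. With the replicate number as a block the counts were 1101, 5 rising, 4 falling and 6 members. Depth limits ASNS most, with 46 to 57 reads per library.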

Other observations

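Other genes of the pathway lists also share much of their sequence with a neighbour on the same strand in GENCODE 29, as ASNS does. The largest shares of exon bases are in SLC25A32, the mitochondrial folate carrier (69.7%), AMT of the glycine cleavage system (63.1%), PDF (48.3%), ALDH4A1 of proline breakdown (41.1%), CCPG1 (38.9%) and MTHFS, which recycles formyl-folate (34.0%). AMT was at 0.100 to 0.185 CPM, MTHFS at 0.336 to 0.368 CPM, SLC25A32 at 5.57 to 7.18 CPM and ALDH4A1 at 20.3 to 21.1 CPM. AMT did not pass the filter on low counts, and the edgeR adjusted p of the other 5 ran from 0.292 for SLC25A32 to 0.978 for CCPG1. What part the overlap has in these levels was not tested.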
